A study of Homo sapiens with 32 samples.

Results

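The 18S rRNA is the RNA of the small ribosomal subunit, and all 1869 of its positions were followed in 1 rDNA copy at GL000220.1:109078-110946 on the plus strand of GRCh38. The positions were taken by their coordinates alone, and they made up 1869 of the series, in which 309717 positions were read in all 32 libraries. Position 1 is the first base of the mature 18S rRNA, so C1337 lies at 110414 and C1842 at 110919.

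RNA came from Hep3B, a hepatocellular carcinoma cell line, and before harvest all populations were kept for 24 h in 100 nM dTAGV1, a compound that directs tagged protein to degradation. The parental population, which has no tag, is Wildtype. The other populations carried a degron tag (FKBP) on endogenous NAT10, so that the drug removed the protein. FKBP cells had the tag and nothing else. A control plasmid was added for NAT10(-) and an unmutated NAT10 add-back for NAT10-WT. The add-backs K290A and E389L carry a mutation in the helicase domain, whereas H537A and G641E carry one in the acetyltransferase (GNAT) domain. Add-backs were delivered by lentivirus and selected with blasticidin, and act from an introduced copy in a transduced population. Each genotype had 2 replicates, and the RNA of each was split into a mock and a NaCNBH3 fraction. Wildtype and NAT10-WT are called NAT10-competent below (4 libraries per fraction) and the other 6 genotypes NAT10-deficient (12 libraries per fraction).

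Human 18S rRNA carries methyl groups on many riboses, many pseudouridines and a few modified bases, placed during ribosome assembly. NAT10 acetylates cytidine to N4-acetylcytidine (ac4C) at C1337 in helix 34 and at C1842 in helix 45. NaCNBH3 reduces ac4C, and the reverse transcriptase then reads the reduced base in part as T. U1248, in the P site loop, carries the hypermodified m1acp3Ψ, which disturbs base pairing without any reduction.

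The sequences around the positions on which the results turn were read from the deposited reference bases, each 29 bases long and 5′ to 3′. Capitals mark the CCG triplet whose middle base is the measured cytosine in the first 4, and the measured base alone in the others. C1337 and C1842 are shown as the known ac4C sites, C1317 and C179 as the other positions that differed between competent and deficient cells, U1248 and A1851 as modified bases read without reduction, and A668 and C797 as the 2′-O-methylated A and C with the highest mismatch.
C1337, GL000220.1:110400-110428, plus strand: tggtggtgcatggCCGttcttagttggtg
C1842, GL000220.1:110905-110933, plus strand: cgtaacaaggtttCCGtaggtgaacctgc
C1317, GL000220.1:110380-110408, plus strand: ctctttctcgattCCGtgggtggtggtgc
C179, GL000220.1:109242-109270, plus strand: gagctaatacatgCCGacgggcgctgacc
U1248, GL000220.1:110311-110339, plus strand: cggcttaatttgacTcaacacgggaaacc
A668, GL000220.1:109731-109759, plus strand: aagttgctgcagttAaaaagctcgtagtt
C797, GL000220.1:109860-109888, plus strand: cgcggggcccgaagCgtttactttgaaaa
A1851, GL000220.1:110914-110942, plus strand: gtttccgtaggtgaAcctgcggaaggatc

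The libraries held 1.21e+09 to 1.73e+09 base calls, of which 1.66% to 2.81% fell on these 18S positions. The median depth of 18S was 18979 to 19456 reads per library, and no position exceeded 19851 reads. The highest depth of any position in the series was 20029 to 20049 reads in each of the 32 libraries. Depth of 18S thus lay near a common ceiling, and neither it nor the share of base calls is read as abundance. The 12 shallowest positions lie between G52 and U63, around the one base at which rDNA copies differ, with median depths from 157 at G60 to 958 at C53. Of 10 liver genes, ALB, APOA1, APOA2, SERPINA1, TF and AHSG were read in every library, whereas AFP, TTR, FGB and APOH had no position of 30 reads in at least 1. Of 5 genes of other cell types, PTPRC, COL1A1 and PECAM1 had no such position in any library, and VIM and KRT19 were read in some, at up to 1868 and 1331 exon positions. NAT10 was read at 518 to 3126 exon positions in the libraries of the NAT10-WT, K290A, H537A and G641E add-backs and at 0 in those of Wildtype, FKBP and NAT10(-). The 4 libraries labelled E389L also had 0, unlike the other add-backs and like cells without one, so NAT10 goes against their label at this depth. Calls of the limma comparisons, the U1248 difference and the count of CCG positions are given with and without them. The substitution medians, Fisher counts, neighbour levels and ratios of group means were taken only with them. The mutated codon was read as mutated in the 4 G641E libraries and in 1 H537A library, and the codons of K290A and E389L were not covered in their own libraries.

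The profile of 18S was quiet apart from a small set of positions. The level used throughout is the share of reads that carry the dominant mismatch, which is the non-reference base with the highest mean share over all 32 libraries. Its mean was at least 0.1% at 76 of 1869 positions (4.07%), comprising 44 of 499 C, 21 of 418 A, 7 of 550 G and 4 of 402 U. In 42 of these the change was C-to-T and in 14 it was A-to-T.

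**Figure D1:**
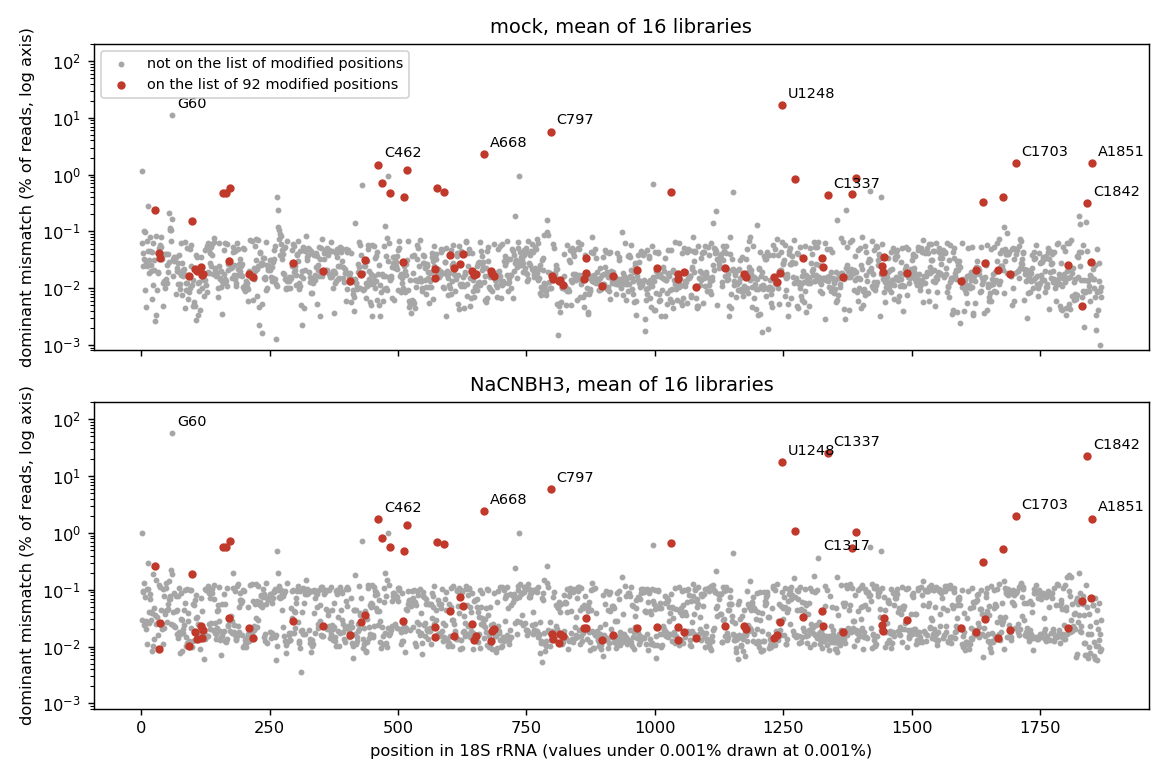
Mean share of the dominant mismatch (% of reads, log axis) along the 1869 positions of 18S rRNA in the 16 mock (upper) and 16 NaCNBH3 (lower) libraries, with red points for the 92 listed modified positions. U1248, C797 and A668 stood out in both fractions, C1337 and C1842 rose above 20% as means over all genotypes with NaCNBH3, and a band of positions near 0.1% appeared with NaCNBH3.

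In mock libraries 9 positions reached a mean of 1%. U1248 was the highest among those with full coverage, at 16.5% ± 1.84 T-to-C (SD, n = 16 libraries). C797, a 2′-O-methylated C, followed with 5.72% ± 0.347 C-to-T, and its 16 mock libraries lay between 4.95% and 6.21%. A668, a 2′-O-methylated A, read T in 2.29% ± 0.341 of reads, between 1.76% and 2.92%. C1703, A1851 and C517 had means of 1.62%, 1.58% and 1.20%, C462 lay between 1.17% and 1.73%, and all 4 are listed as modified.

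A2 and G60 are not on the list, and their values were bound to the choice of rDNA copy. A2 read C in 1.18% of mock reads of this copy, with 639 to 4525 reads per library, but in 0.190% when 7 complete rDNA copies were summed. At position 60 this copy and 2 others carry G, whereas 4 copies carry A. Over the 7 copies A made up 99.6% of mock reads at position 60, and this copy held only 0 to 318 reads there. Of those reads 11.01% were T in mock and 57.4% in NaCNBH3 (15 and 16 libraries). G60 was absent from E389L mock replicate 1 and was left out of the limma fit.

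Positions with a known 2′-O-methyl ribose read differently by base. The list held 92 positions, all with the matching reference base: 42 ribose methylations, 43 pseudouridines and 7 modified bases. It was written down from general knowledge of human 18S rRNA and not from these files. In mock libraries all 13 listed 2′-O-methylated A had an A-to-T share above 0.1%, from 0.151% at A99 to 2.29% at A668 with a median of 0.469%. None of 402 unlisted A did, and their median was 0.00575%. The 13 took ranks 1 and 3 to 14 of 418 A, and rank 2 belonged to A1851, which carries 2 methyl groups on its base. No methylated A exceeded 0.1% for A-to-C or A-to-G, with highest means of 0.0343% and 0.0407%.

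Of the 8 methylated C, 7 had a C-to-T share above 0.1%. Their C-to-T share had a median of 1.03% in mock against 0.0443% over 488 unlisted C, of which 13 (2.66%) exceeded 0.1%. C621 was the exception at 0.0267%, rank 453 of 499 C. C517 also read G in 0.839% ± 0.0871 of mock reads (SD, n = 16), whereas C797 read G in 0.0144% and A in 0.205% ± 0.0520. C-to-A exceeded 0.1% at 2 of 8 methylated C and 1 of 488 unlisted C, with medians of 0.0712% and 0.00846%.

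Methylated G and U and the pseudouridines had lower shares. None of 9 methylated G, 12 methylated U and 43 pseudouridines exceeded 0.1% for any substitution in mock. The median U-to-C share was 0.0174% at pseudouridines, 0.0203% at methylated U and 0.0168% at 346 unlisted U. Methylated U differed more from unlisted U in the rarer changes, with a median U-to-G share of 0.0125% against 0.00295% (4.24-fold) and a U-to-A share of 0.00621% against 0.00258% (2.41-fold). Methylated G had a median G-to-T share of 0.0294% against 0.0101% at 540 unlisted G. U1244, a pseudouridine 4 bases before the hypermodified site, read C in 0.0186% ± 0.0151 of mock reads and 0.0274% ± 0.0112 of NaCNBH3 reads (SD, n = 16).

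**Figure D2:**
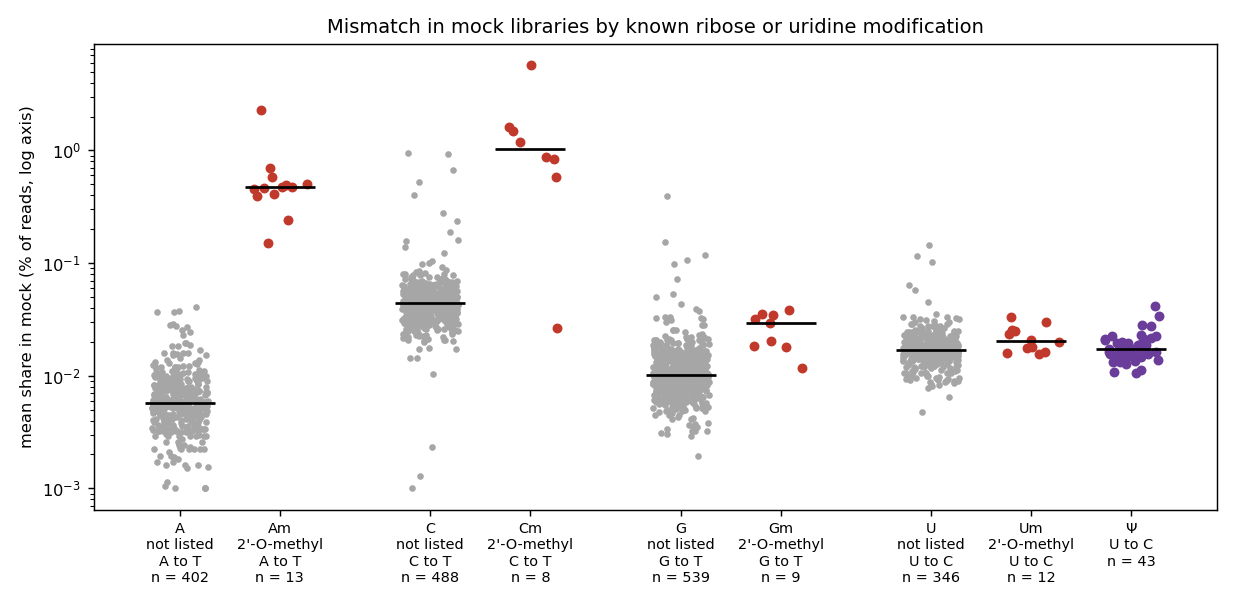
Mean mock share (% of reads, log axis) of A-to-T, C-to-T, G-to-T and U-to-C at 18S positions by listed modification, 1 point per position and a bar at the median, with base-modified positions, C1317 and G60 left out. All 13 methylated A and 7 of 8 methylated C lay above 0.1%, and the methylated G and U and the pseudouridines lay below 0.05%.

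Several unlisted C had shares in the range of the methylated ones, and these were picked after their values were seen. C736 read T in 0.940% of mock reads, C481 in 0.931%, C430 in 0.666%, C1419 in 0.524% and C1440 in 0.405%. The reference base was the same in the 7 complete copies at each of them.

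The remaining base modifications gave weak or no mismatch. G1639, which carries m7G, read T in 0.330% ± 0.0602 and A in 0.195% ± 0.0501 of mock reads (SD, n = 16). A1832, which carries m6A, read T in 0.00495% ± 0.0117 and had 852 to 9117 reads, with a median of 0% over the 16 mock libraries. A1850 and A1851 both carry N6,N6-dimethyladenosine, yet A1850 read T in 0.0295% ± 0.0271 of mock reads and A1851 in 1.58% ± 0.690.

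The first comparison asked which 18S positions changed with NaCNBH3. Beside C1337 and C1842, many C and A rose by small amounts and no position was called lower. Of 75 positions tested by limma on the log2 odds of the dominant mismatch, 34 were higher in NaCNBH3 and 0 lower, where 13.7% of all 25564 positions tested were called higher and 0.133% lower (13.8% in either direction). Of these, 27 of 42 were C-to-T and 7 of 14 A-to-T, and 0 of the other 19 were called. The median log2 odds ratio was 0.29 over the 18S positions and 0.23 over all positions tested. The filter of a 0.1% mean share took both fractions together, so positions low in mock could enter through their NaCNBH3 level. Of unlisted C, 13 exceeded 0.1% C-to-T in mock, whereas 33 were tested for it and 20 called. The count of 34 of 75 is therefore weighted toward positions that rose, and the share over all positions came through the same filter.

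C1842 and C1337 had the largest changes, with log2 odds ratios of 6.43 ± 0.22 and 6.17 ± 0.15 (SE; limma adjusted p = 3.3e-15 and 8.1e-18). C1807, C179 and C1317 followed at 1.56 ± 0.15, 1.55 ± 0.13 and 1.49 ± 0.14. C1802, C1309 and C1811 rose by 1.39, 1.27 and 1.27. C1807 showed the size of these smaller changes: its mock libraries lay between 0.0191% and 0.0993% and its NaCNBH3 libraries between 0.130% and 0.244%, without overlap. C1309 was uneven between libraries, with a NaCNBH3 median of 0.105% and a highest value of 0.582%, and its adjusted p was 0.072 when each mock and NaCNBH3 fraction pair was fitted as a block.

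The methylated A and C moved little from their mock levels. Of the 13 methylated A 7 were called, and their log2 odds ratios had a median of 0.27. Of the 7 methylated C tested 5 were called, with a median of 0.23. C797 changed from 5.72% to 5.96% (log2 odds ratio 0.06, adjusted p = 0.71) and A668 from 2.29% to 2.43% (0.10, adjusted p = 0.62), and neither was called. U1248 (0.10, adjusted p = 0.58), G1639 (-0.09, adjusted p = 0.68) and A1851 (0.22, adjusted p = 0.46) were not called either.

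The same shift was seen in the background of 18S. The median A-to-T share over 415 A was 0.00520% ± 5.4e-05 in mock and 0.0480% ± 0.0107 in NaCNBH3 (SD, n = 16), a 9.24-fold rise. The median C-to-T share over 496 C went from 0.0430% ± 0.00357 to 0.0940% ± 0.0182, and that of A-to-G from 0.0147% to 0.0217%. All 3 were higher in 16 of 16 pairs of one genotype and replicate (exact sign-flip permutation test, two-sided, p = 3.1e-05, the smallest possible; adjusted p = 0.00012 over 12 substitutions). G-to-A and G-to-T moved by 0.000591 and 0.000521 percentage points in 13 of 16 pairs (adjusted p = 0.0045 for both by the same exact permutation test), which for G-to-A is less than the spread between mock libraries (SD 0.00151), and neither passed with the pairs of replicate 1 alone (adjusted p = 0.17 and 0.13). The other 7 substitutions did not pass, with adjusted p of 0.062 for A-to-C and at least 0.21 for the rest. The rise of A-to-T was 0.0332 percentage points over the 8 pairs of replicate 1 and 0.0524 over those of replicate 2.

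**Figure D3:**
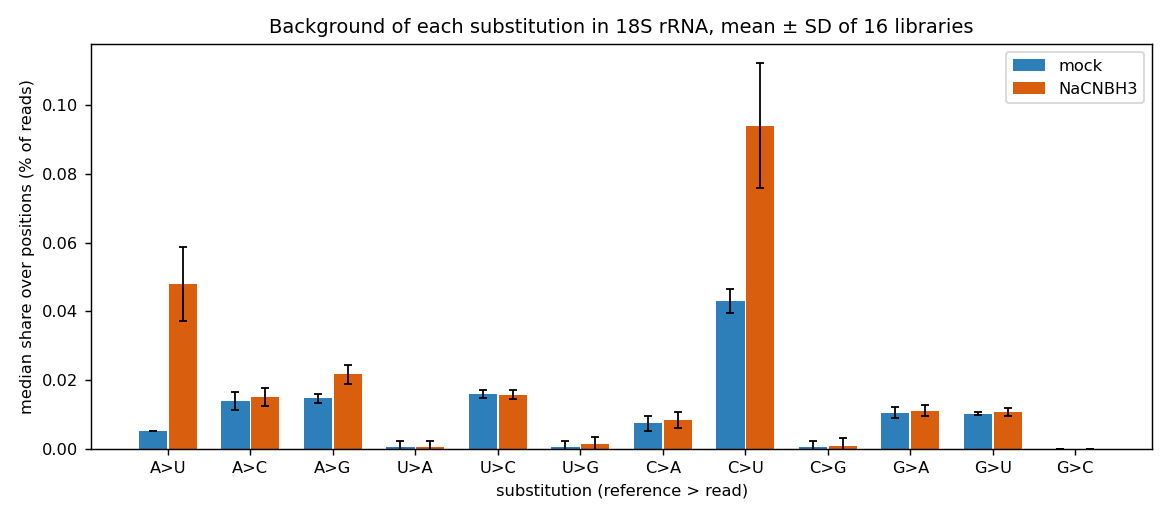
Median share of each of 12 substitutions over 18S positions (% of reads), as the mean ± SD of 16 mock and 16 NaCNBH3 libraries. A>U and C>U (read as T in the cDNA) were higher with NaCNBH3, at 0.0480% and 0.0940% against 0.00520% and 0.0430%.

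The study tested single replicates by Fisher's exact test, and the same test was run here on every position with at least 30 reads, 5 mismatch reads and a share above 1%. Each test set 1 mock against 1 NaCNBH3 library with reads as the units, so it covers counting error only, and a position was called when both replicates passed in the same direction. C1337 and C1842 were called higher in NaCNBH3 in all 8 genotypes, the deficient ones included. Over the 8 genotypes 30 calls were made among 18S positions, all higher, where 1.82% of all positions tested were called higher. Of 18S positions 6 of 12 were called in Wildtype (background 3.09%), 5 of 14 in NAT10-WT (2.97%) and 5 of 10 in FKBP (1.66%). The counts were 3 of 10 for NAT10(-) (1.28%), 3 of 12 for K290A (1.38%) and 2 of 9 for E389L (1.1%). H537A had 3 of 12 (1.92%) and G641E 3 of 10 (1.02%). G60 was called in 7 genotypes, all but E389L, with the low coverage described above. C1703 was called in Wildtype, NAT10-WT and FKBP, C1272 in Wildtype and FKBP, U1248 in Wildtype and C1317 in NAT10-WT. When the share was lowered to 0.1%, 106 of 976 tests at 18S positions were called higher, against 5.19% of all tests.

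The next comparison asked which 18S positions depended on NAT10 after reduction. There were 4, all C-to-T and all higher in competent cells, and each was the middle base of a CCG triplet. limma called 4 of 75 positions higher and 0 lower in NaCNBH3 libraries, where 0.426% of all positions tested were higher and 0.395% lower (0.821% in either direction). C1317 and C179 reached the 0.1% mean share needed for testing only through their competent NaCNBH3 libraries. In deficient cells they had means of 0.0558% and 0.0495% in mock and 0.107% each in NaCNBH3. Their limma calls, here and below, were favoured by that filter. Without the libraries labelled E389L the same 4 were called. Here and below, the limma SE and p of competent against deficient came from the spread between replicates within genotypes. They do not measure the spread between genotypes. The shares over all positions, here and below, also count the other rDNA copies, which repeat these sites. In another copy 4 of 83 positions were called. Replicate 2 was above replicate 1 in 7 of 8 genotypes at C1337 and in 8 of 8 at C1842, and whether the replicate number marks a batch was not tested.

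C1337 read T in 68.8% and 90.8% of NaCNBH3 reads of the 2 Wildtype replicates and in 60.9% and 72.9% of NAT10-WT. The 12 deficient libraries lay between 5.89% and 11.8% with a median of 9.38%, so the groups did not overlap. The log2 odds ratio of competent against deficient was 4.95 ± 0.25 (SE, adjusted p = 2.3e-11). G641E had the lowest values, 5.89% and 7.23%, and NAT10(-) replicate 2 the highest of the deficient libraries.

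C1842 read T in 72.6% and 89.96% of Wildtype and 54.4% and 68.7% of NAT10-WT reads. The deficient libraries lay between 2.23% and 8.84%, with the library labelled E389L replicate 1 lowest and K290A replicate 2 highest. The log2 odds ratio was 5.59 ± 0.36 (adjusted p = 1.1e-09). C1842 had 2250 to 8364 reads, fewer than the 13496 to 19374 at C1337. C1337 was above C1842 in 11 of 12 deficient and 3 of 4 competent libraries.

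C1317, 20 bases before C1337, was high in one genotype. NAT10-WT read T in 1.86% and 1.94% of NaCNBH3 reads and Wildtype in 0.386% and 0.400%, whereas the 12 deficient libraries lay between 0.0566% and 0.165%. The competent against deficient log2 odds ratio was 3.07 ± 0.23 (adjusted p = 7.3e-09). C1317 was the single 18S position at which Wildtype differed from NAT10-WT, 4.84-fold lower in Wildtype (log2 odds ratio -2.29 ± 0.39, adjusted p = 0.0017), where 0.555% of all positions tested were called lower and 0.246% higher (0.802% in either direction). C1337 (1.19 ± 0.43, adjusted p = 0.47) and C1842 (1.61 ± 0.63, adjusted p = 0.55) were nominally higher in Wildtype and did not pass.

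C179, near the 5′ end, was far weaker but showed the same separation. It read T in 0.358% and 0.587% of Wildtype and 0.556% and 0.393% of NAT10-WT NaCNBH3 reads. The 12 deficient libraries lay between 0.0669% and 0.146%, and none reached the competent ones. Depth was 19150 to 19696 reads in every library. The log2 odds ratio was 2.14 ± 0.21 (adjusted p = 4.8e-07), and Wildtype and NAT10-WT differed by -0.03 ± 0.36 (adjusted p = 1.0). In mock all 16 libraries were between 0.0313% and 0.0884%.

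**Figure D4:**
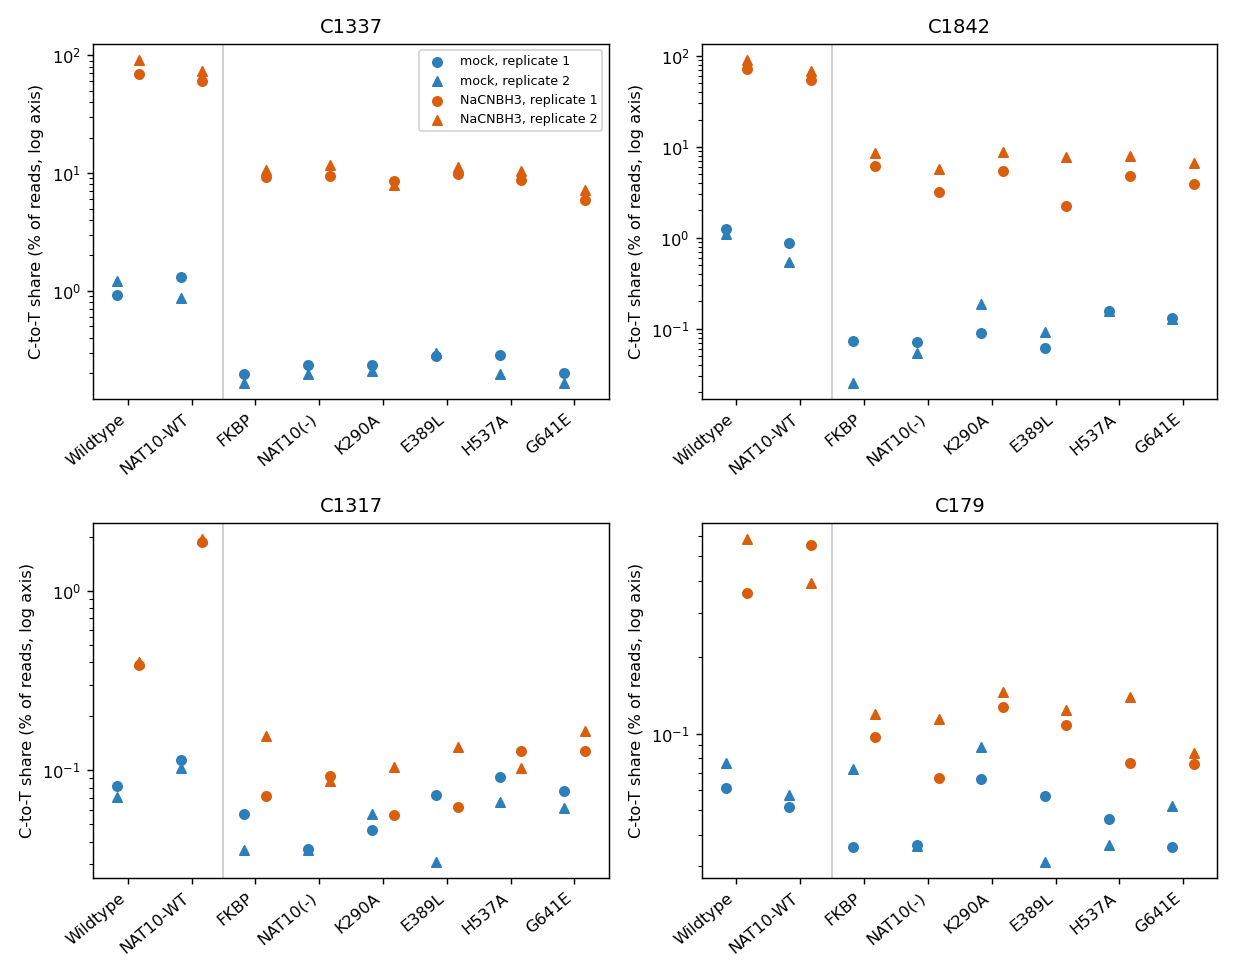
C-to-T share (% of reads, log axis, scale differing between panels) at C1337, C1842, C1317 and C179 in each of the 32 libraries, blue for mock and orange for NaCNBH3, circles for replicate 1 and triangles for replicate 2, with a line between competent and deficient genotypes. At all 4 positions the 4 competent NaCNBH3 libraries lay above the 12 deficient ones, and at C1317 NAT10-WT (1.86% and 1.94%) lay above Wildtype (0.386% and 0.400%).

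The CCG context was then followed over the whole RNA. 18S has 52 CCG triplets, and the middle bases made up 10.4% of its 499 C. With NaCNBH3 every competent library was above every deficient library at 4 of the 52, namely C179, C1317, C1337 and C1842, and at 0 of the other 447 C. Over all 90825 C read in every library of the series, 0.109% showed this separation. These C include the other rDNA copies, in which the same sites are counted again. The opposite separation was seen at 0 of the 499 C and at 0.0121% of all C. At the other 48 CCG positions the C-to-T share of NAT10-WT NaCNBH3 libraries ranged from 0.00255% to 0.991% with a median of 0.0894%. The highest, C736, was the unlisted C named above and stood at 0.940% in mock. C1075 came closest to the called positions, at 0.231% ± 0.0242 in NAT10-WT (SD, n = 2), 0.188% in Wildtype and 0.1002% in deficient cells, and did not pass (adjusted p = 0.055, and 0.10 without the libraries labelled E389L). With the replicate number as a block it did pass (adjusted p = 0.041). Of the 9 triplets followed by U, 3 were C1317, C1337 and C1842, whereas C179 is followed by A.

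The bases around the called cytosines had similar levels in competent and deficient cells, as a description without a test. Over the 10 nearest neighbours of C1337 the highest mean mismatch in competent NaCNBH3 libraries was 0.0962%, at C1336, against 0.0973% in deficient ones. At C1317 the highest was 0.0957%, at C1316, against 0.0988%. At C1842 it was 0.152% at U1839, against 0.111%. Near C179 it was the methylated C174, at 0.721% against 0.711%. At C1337 itself the reads other than C and T were few in competent NaCNBH3 libraries, with 0.0464% A and 0.0151% G.

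Each deficient genotype was compared with the unmutated add-back. C1842, C1337, C1317 and C179 were lower in all 6, and these 4 were the called 18S positions in NAT10(-), K290A, E389L, H537A and G641E. Of all positions tested, 0.243% were called lower and 0.0196% higher in FKBP (0.262% in either direction), and in NAT10(-) 0.199% lower and 0.00782% higher (0.207%). The shares were 0.329% lower and 0.0587% higher in K290A (0.387%), and 0.18% lower and 0.0117% higher in E389L (0.192%). In H537A they were 0.188% lower and 0.00391% higher (0.192%), and in G641E 0.215% lower and 0.0156% higher (0.231%). All these shares count the same sites in other rDNA copies too. The log2 odds ratios ran from -4.87 in G641E to -4.12 in NAT10(-) at C1337, from -5.20 in the libraries labelled E389L to -4.36 in FKBP at C1842, from -4.61 in K290A to -3.71 in G641E at C1317, and from -2.52 in G641E to -1.77 in K290A at C179. These 6 comparisons and that of Wildtype share the 2 NAT10-WT NaCNBH3 libraries. Without NAT10-WT NaCNBH3 replicate 1, C179 was called in G641E alone, and the highest adjusted p of the other 5 genotypes over all libraries left out and settings was 0.45, in those labelled E389L. C481, an unlisted C, was also lower in FKBP (log2 odds ratio -1.19 ± 0.25, adjusted p = 0.041): FKBP read T in 0.526% and 0.612% and NAT10-WT in 1.44% and 1.16%. In FKBP mock libraries C481 was 0.562% and 0.533%, also the lowest of the 16. The C481 call was lost in 17 of 39 alternatives.

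The helicase mutants (K290A and the libraries labelled E389L) and the GNAT mutants were compared with each other. No 18S position was called (0 of 75, against 0% of all 25564 positions), with 3 of 75 and 3389 of 25564 at an unadjusted limma p under 0.05. With the replicate number as a block 0 of 75 and 9 of 25564 were called. Without the libraries labelled E389L, K290A alone against the GNAT mutants gave 0 of 75 and 1990 of 25564, so the count over all positions rests on those libraries, and C1337, C1842, C1317 and C179 then had log2 odds ratios of 0.06 ± 0.39, 0.32 ± 0.50, -0.73 ± 0.28 and 0.57 ± 0.31 (SE, limma adjusted p of at least 0.11). The median log2 odds ratio of the contrast was -0.27 over all positions and 0.02 over 18S. Helicase minus GNAT was 0.25 ± 0.31 at C1337, -0.06 ± 0.44 at C1842, -0.61 ± 0.28 at C1317 and 0.45 ± 0.26 at C179 (log2 odds ratio ± SE, adjusted p = 0.80, 0.98, 0.35 and 0.46).

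The dependence on NAT10 was partly present without reduction. In mock libraries limma called 2 of 75 positions higher in competent cells and 0 lower, where 0.27% of all positions tested were higher and 0.567% lower (0.837% in either direction). C1337 read T in 0.929% and 1.22% of Wildtype and 1.31% and 0.872% of NAT10-WT mock reads, whereas the 12 deficient libraries lay between 0.166% and 0.296% (log2 odds ratio 2.29 ± 0.25, adjusted p = 4.1e-06). C1842 read T in 1.24% and 1.09% of Wildtype and 0.879% and 0.542% of NAT10-WT, and in 0.0254% to 0.186% of deficient mock reads (3.14 ± 0.36, adjusted p = 8.4e-06). C1317 was at 0.0924% ± 0.0192 in competent (n = 4) and 0.0558% ± 0.0192 in deficient (n = 12) mock libraries and did not pass (adjusted p = 0.24).

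The effect of NaCNBH3 itself differed between competent and deficient cells at 3 of 75 positions, where 0.106% of all positions tested differed, all of them with the larger rise in competent cells (0% in the other direction). That share includes the other rDNA copies, and another copy also gave 3 calls, so it is in part made up of these same sites. The fit took both fractions of one RNA as separate libraries, and this difference was not fitted with the fraction pair as a block. The difference in log2 odds ratio was 2.66 ± 0.35 at C1337 (adjusted p = 0.00080), 2.32 ± 0.32 at C1317 (adjusted p = 0.00081) and 1.78 ± 0.30 at C179 (adjusted p = 0.0063). At C1842 it was 2.44 ± 0.51 and did not pass (adjusted p = 0.076), but passed with the replicate number as a block (adjusted p = 0.038). The C179 call was lost without NAT10-WT NaCNBH3 replicate 1 or without Wildtype NaCNBH3 replicate 2 (highest adjusted p = 0.071). NaCNBH3 over mock was 67.8-fold in competent and 41.7-fold in deficient cells at C1337, 76.1-fold and 58.1-fold at C1842, 12.4-fold and 1.92-fold at C1317, and 7.69-fold and 2.15-fold at C179, as ratios of group means. The background C-to-T rise was 2.18-fold, so in deficient cells C1317 and C179 rose about as much as the median C.

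U1248 had a high mismatch in every genotype and fraction. All non-reference bases together made up 18.9% ± 2.20 of mock and 20.1% ± 1.89 of NaCNBH3 reads (SD, n = 16 each). Most of it was C, with 2.16% A and 0.254% G in mock. Averaged over the 2 fractions, competent cells were at 20.6% ± 2.42 (n = 4 RNA samples) and deficient cells at 19.1% ± 1.68 (n = 12), a difference of 1.47 percentage points (exact permutation test, two-sided, p = 0.19). The lowest genotype was K290A at 16.9% ± 0.340 and the highest H537A at 21.2% ± 1.25 (n = 2). Wildtype replicates spanned most of this range, at 23.4% and 17.7%. In NaCNBH3 libraries alone the difference was 2.21 points (exact permutation test, p = 0.040), and in mock alone 0.738 (exact permutation test, p = 0.58). The size rested on the Wildtype replicates: it was 2.43 without replicate 2 (exact permutation test, p = 0.046) and 0.537 without replicate 1 (exact permutation test, p = 0.64). These permutations shuffled single RNA samples, although the 2 replicates of a genotype share its status. The p-values therefore treat replicates of one genotype as independent and do not measure the spread between genotypes.

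A1851 varied between genotypes and between fractions of one genotype. In mock it read T in 0.857% and 0.578% of FKBP reads, 0.997% and 0.920% of NAT10(-) and 2.67% and 2.97% of H537A, with Wildtype at 1.97% and 1.24%. In NaCNBH3 libraries FKBP again had the lowest values, 1.01% and 0.776%, but G641E replicate 2 had the highest, 3.60%, and H537A fell between at 1.40% and 2.38%. Competent and deficient cells were not called different in mock (log2 odds ratio 0.10 ± 0.24, adjusted p = 0.98) or NaCNBH3 (0.44 ± 0.24, adjusted p = 0.78). Depth at A1851 was 2884 to 10894 reads.

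**Figure D5:**
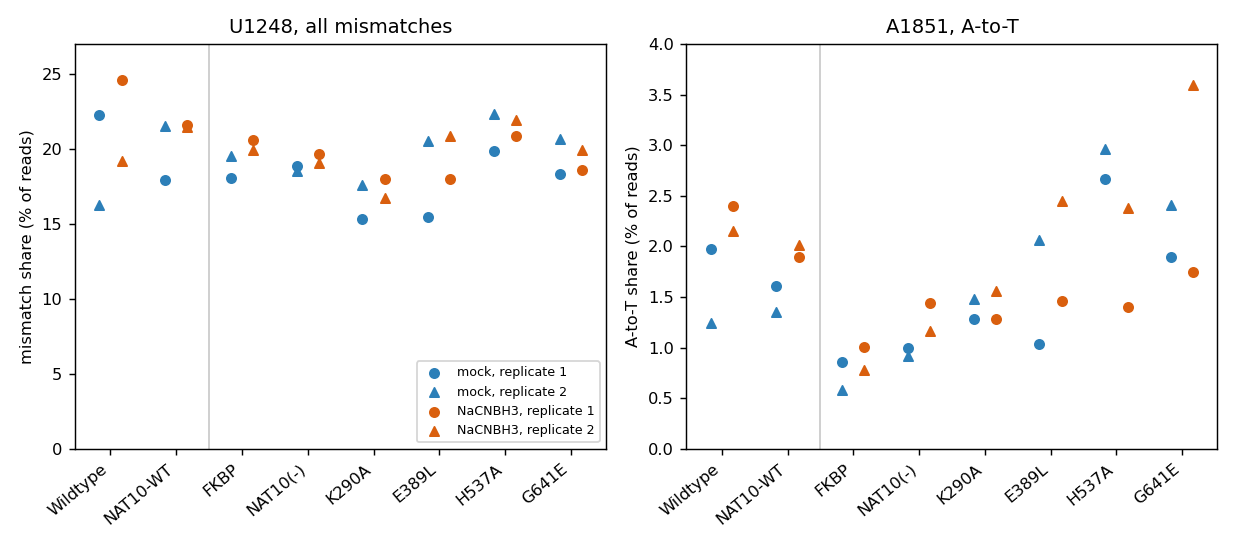
Share of all mismatches at U1248 (left) and of A-to-T at A1851 (right), in % of reads, for each of 32 libraries by genotype, blue for mock and orange for NaCNBH3, circles for replicate 1 and triangles for replicate 2. U1248 lay between 15.3% and 24.6% in all libraries, and FKBP had the lowest A1851 values in both fractions.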

How the data were processed

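The authors trimmed reads, took a molecular identifier from each, removed duplicates, aligned to GRCh38 and counted bases from a pileup. The tools were STAR 2.7.9a, SAMtools 1.6, cutadapt 4.2 and UMI-tools 1.1.5, according to the submitters' notes. The deposited values are raw counts of A, T, C and G per position and strand, listed where depth was at least 30 reads. Ribosomal RNA had been partly depleted, reverse transcription used Induro with 2-amino-dATP, and reads of rDNA appear at several copies, so the copies are not independent. No 18S position exceeded 19851 reads in any library.

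The labels distinguish replicates by a number alone, and the paper describes them as biological replicates. Both fractions of a replicate came from one RNA, and the reported limma fit did not pair them. Its p-values measure the spread between replicates of one genotype and fraction. The Fisher p-values cover counting error only, and the permutation p-values take RNA samples as the units. Levels were modelled with limma 3.58.1 (R 4.3.3) on log2((mismatch + 0.5)/(reference + 0.5)), 1 coefficient per genotype and fraction, empirical Bayes with a trend on depth, and Benjamini-Hochberg over 25564 positions of the whole table with 30 reads in all 32 libraries and a mean share of at least 0.1%. Calls had an adjusted p under 0.05. Exact permutation tests, Fisher's exact test and medians used SciPy 1.17.1 and NumPy 2.4.6. Unlisted positions exclude the 7 base-modified positions, U1244 and C1317. The limma and Fisher scripts were tested on simulated data.

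Replicate differences of mock and NaCNBH3 fractions correlated above 0.1 in 8 of 8 genotypes (Spearman, 75 positions, median 0.40), and those of different genotypes in 27 of 28 pairs (median 0.34). The positions and lists were chosen with earlier results of these data known. Named were the 7 base-modified positions, U1244, C1317, positions of at least 1% in mock, and up to 8 called positions per contrast. Alternatives covered the added count, filters, all mismatches, blocks, trend, another rDNA copy and each library left out. Leaving out the E389L libraries was added after the data were seen.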

Additional observations from a re-analysis of the deposited data

Results flagged for a closer look

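The effect of NaCNBH3 differed between NAT10-competent and NAT10-deficient genotypes at 3 positions of 18S rRNA, by the limma test of that difference. The log2 odds ratio of competent minus deficient was 2.66 at C1337, 2.32 at C1317 and 1.78 at C179. The fit did not pair the fractions of one RNA, and its p-values do not measure the spread between genotypes. C1317 and C179 had entered the test only through their competent NaCNBH3 libraries, which favours these 2 calls. At C179 the difference no longer passed when the trend on depth was left out of the fit, without NAT10-WT NaCNBH3 replicate 1 or without Wildtype NaCNBH3 replicate 2 (highest adjusted p = 0.071). With 2 libraries per group, single libraries were not screened for outlying values.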

How the results depend on the processing

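The counts of 18S positions called changed as follows. NaCNBH3 against mock called 98 of 155 positions with all mismatches summed and 4 of 10 with a mean share of at least 1%, where fewer positions were tested. That filter also left 2 called in competent against deficient NaCNBH3 libraries and 12 summed over the 7 contrasts with NAT10-WT, since C1317 and C179 were not tested. Without the trend on depth 25 of 75 were called in NaCNBH3 against mock in place of 34, and 21 in the contrasts with NAT10-WT in place of 26, of which FKBP had 3 in place of 5. Fisher's test made 106 calls at a share of 0.1%. With single replicates it made 37 and 51. At U1248 the difference was 2.21 points with NaCNBH3 libraries alone (exact permutation p = 0.040), and from 0.537 to 2.43 without each genotype and replicate. All permutations at U1248 took RNA samples, not genotypes, as the units. Leaving out each library gave 29 to 34, 4 to 5, 2 to 3, 2 to 4, 0 and 20 to 27 calls in NaCNBH3 against mock, competent against deficient with NaCNBH3 and in mock, their difference, helicase against GNAT and the contrasts with NAT10-WT. CCG positions without overlap numbered 4 to 6 without each competent library, an alternative chosen after the data were seen. The CCG count itself and the count of methylated A and C above 0.1% in mock were also not among the planned results. Substitutions called numbered 4 to 5 with one replicate. With the replicate number as a block the same 5 limma comparisons and the contrasts with NAT10-WT gave 38, 5, 2, 4, 0 and 26 calls, and 37 for NaCNBH3 against mock with the fraction pair as a block. At U1248 the exact permutation within the block gave p = 0.20. Of the 18S positions named in the report, the block changed the calls of C1075 and C1842. Over all positions it called 9 in helicase against GNAT, where 7 of 3136 were called at a mean share of at least 1%, 2 of 9530 with a higher depth minimum and 0 in the reported fit. Of 48 results on single positions or substitutions 38 kept their call in every alternative and 0 changed sign. With the E389L libraries left out, chosen after the data were seen, the limma comparisons gave 32, 4, 2, 3, 0 and 22 calls in 18S, the last over 6 contrasts, U1248 differed by 1.39 points (exact permutation p = 0.22) and CCG positions numbered 4. The cause was not tested for any of these. With 5 added to each count the median log2 odds ratio of NaCNBH3 against mock over all positions tested was 0.10 in place of 0.23. The low depth between G52 and U63 limits those positions.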
